A study of Mus musculus with 4 samples.

Results

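The regions described here are the H3K27me3 peaks of a mouse pre-B leukemia culture that also carried PHF6 and H3K27ac. A member was any H3K27me3 peak on chromosomes 1 to 19 that shared at least 1 bp with a PHF6 peak and at least 1 bp with an H3K27ac peak. This rule gave 927 of the 5395 H3K27me3 peaks on these chromosomes (17.2%, 95% exact binomial interval 16.2 to 18.2). The remaining H3K27me3 peaks comprised 232 with H3K27ac but no PHF6, 523 with PHF6 but no H3K27ac, and 3713 with neither. PHF6 in any combination lay at 26.9% of the H3K27me3 peaks, and H3K27ac at 21.5%. These shares follow from the rule and describe the choice of the regions.

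The study used chromatin immunoprecipitation and sequencing (ChIP-seq), which recovers crosslinked DNA with an antibody, in C57BL/6J pre-B cell leukemia cells. All libraries came from p19 null cells that overexpressed BCR-ABL1, a fusion kinase, with no other treatment named in the labels. There were 4 libraries, for PHF6, H3K27ac, H3K27me3 and input DNA without antibody, and the input was not analysed here. Each antibody had 1 library and no other culture stood beside it, so no value has a replicate check and no p-value was computed.

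H3K27 can be acetylated or trimethylated, but a single lysine cannot carry both modifications at once. Acetylation is typical of active promoters and enhancers, while trimethylation is written by Polycomb complexes and is associated with gene silencing. PHF6 is a nuclear protein with PHD-like zinc fingers that binds chromatin, is known to interact with the NuRD nucleosome remodelling complex, and is recurrently mutated in human leukemia. Peaks of opposing marks that overlap can arise from neighbouring nucleosomes, from the 2 alleles or from different cells, and peak lists do not tell these apart.

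Each peak came with a score and with a summit, the position of its largest pileup of sequenced fragments, here given with its height as a whole number. Heights are the authors' own values, have a largest value of 400 in each list, and rest on an unknown number of reads. They were therefore ranked within a list, and heights of different antibodies are printed side by side. Equal heights in different lists do not mean equal signal. Coordinates are in build mm9, with the cytogenetic band in parentheses. Genes and sequence at these positions were not analysed here.

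The 3 peaks usually lay on top of one another. In 855 members (92.2%) the H3K27me3 peak met exactly 1 PHF6 and 1 H3K27ac peak, and in 923 members (99.6%) at least 1 base was common to all 3. The members covered 1.35 Mb. Of these H3K27me3 bases, 66.4% were also in a PHF6 and an H3K27ac peak, 11.5% in a PHF6 peak alone, 4.02% in an H3K27ac peak alone, and 18.1% in neither. The median stretch shared by all 3 lists was 890 bp (quartiles 647 and 1222) of a median H3K27me3 width of 1211 bp (quartiles 929 and 1767). Few members rested on a narrow margin. The smaller of the PHF6 and H3K27ac overlaps was at most 50 bp in 16 members, with a median H3K27me3 height of 15.5. Just outside the rule, 8 acetylated H3K27me3 peaks missed a PHF6 peak by up to 50 bp (median height 15), and 6 with PHF6 missed an H3K27ac peak by as little (median height 17.5).

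PHF6 formed the widest of the 3 peaks, with a median of 2003 bp against 1600 bp for H3K27ac and 1211 bp for H3K27me3, and often enclosed the others. A calling setting, given below, differed between H3K27me3 and the other lists, and depth is unknown. Widths and enclosure therefore describe the called peaks, and their dependence on calling was not tested. The whole H3K27me3 peak lay inside the PHF6 peak in 449 members (48.4%, 45.2 to 51.7) and inside the H3K27ac peak in 292 (31.5%, 28.5 to 34.6). The H3K27ac peak lay wholly inside the PHF6 peak in 483 members (52.1%, 48.8 to 55.4), and the reverse held in 157 (16.9%, 14.6 to 19.5). An H3K27me3 peak that enclosed its PHF6 peak was seen in 71 members (7.66%), and one that enclosed its H3K27ac peak in 121 (13.1%).

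The H3K27me3 summit stood inside the other peaks more often where all 3 lists met. It lay inside an H3K27ac peak in 735 of 927 members (79.3%, 76.5 to 81.9), against 151 of 232 acetylated H3K27me3 peaks without PHF6 (65.1%, 58.6 to 71.2). It lay inside a PHF6 peak in 778 members (83.9%, 81.4 to 86.2), against 359 of 523 H3K27me3 peaks with PHF6 but no H3K27ac (68.6%, 64.5 to 72.6). Neither interval pair overlaps, but the intervals cover counting error of these libraries only. Wider peaks give more room for a summit. Median H3K27ac widths were 1600 bp at members and 1255 bp at H3K27me3 without PHF6, and median PHF6 widths were 2003 bp at members and 1179 bp at H3K27me3 without H3K27ac. The part of width in these differences was not tested. Split by H3K27ac height, the H3K27ac shares had separate intervals only at heights of 150 to 400, as given below. In 705 members (76.1%) the summit was inside both other peaks, in 73 (7.87%) inside PHF6 only, in 30 (3.24%) inside H3K27ac only and in 119 (12.8%) inside neither.

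**Figure D1:**
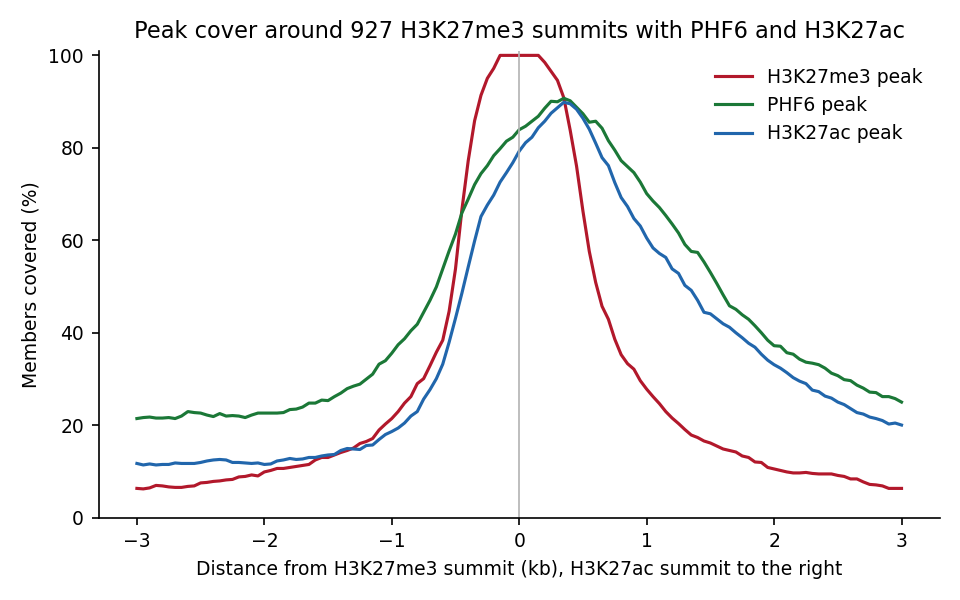
Share of the 927 members (y axis, %) covered by an H3K27me3, PHF6 or H3K27ac peak at each distance from the H3K27me3 summit (x axis, kb), with each member turned so that its H3K27ac summit lies to the right. At the H3K27me3 summit PHF6 covered 83.9% and H3K27ac 79.3% of members, and at 1.2 kb on the acetylated side 63.5% and 53.8%, against 29.99% and 15.6% at 1.2 kb on the other side.

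The plot of peak cover shows PHF6 leaning to the same side as H3K27ac. Turning each member towards its H3K27ac summit fixes the side of the acetylation curve, but it does not use the PHF6 position. At 1.2 kb on the acetylated side a PHF6 peak covered 63.5% of members and an H3K27me3 peak 21.6%. At the same distance on the other side these were 29.99% and 16.5%. A PHF6 peak has to overlap the H3K27me3 peak and often extends over the H3K27ac peak, so this lean partly follows from which peaks were chosen. Before turning, the H3K27ac summit lay at the higher coordinate in 455 of 926 members with distinct summits (49.1%, 45.9 to 52.4).

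Summit positions were not used by the rule beyond the need for overlap, and they placed PHF6 with acetylation more often than with trimethylation. The distance from PHF6 to H3K27ac summits had a median of 145 bp (quartiles 49.5 and 538, n = 927 members). The PHF6 to H3K27me3 distance had a median of 431 bp (126 and 957), and the H3K27me3 to H3K27ac distance 493 bp (148 and 1005). The PHF6 summit was nearer to the H3K27ac summit in 599 members (64.6%, 61.4 to 67.7), nearer to the H3K27me3 summit in 326 (35.2%, 32.1 to 38.3) and equally far in 2. Where a member met several PHF6 or H3K27ac peaks, the one with its summit nearest the H3K27me3 summit was taken, which shortens the distances to H3K27me3.

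PHF6 and H3K27ac summits were within 100 bp of each other in 376 members (40.6%, 37.4 to 43.8), against 174 (18.8%, 16.3 to 21.4) for H3K27me3 and H3K27ac and 189 (20.4%, 17.8 to 23.1) for H3K27me3 and PHF6. Taken from the acetylation list, 927 of the 930 H3K27ac peaks at members met PHF6 themselves and had a PHF6 summit at a median of 127 bp (quartiles 45 and 439). The 21912 H3K27ac peaks with PHF6 and no H3K27me3 had it at 104 bp (37 and 319). The H3K27me3 to PHF6 distance of 431 bp was close to the 421 bp (128 and 895, n = 523) at H3K27me3 peaks with PHF6 but no H3K27ac. The H3K27me3 to H3K27ac distance was 493 bp at members and 696 bp (190 and 1437, n = 232) where PHF6 was absent, but this order did not hold at every H3K27ac height, as the values by height show.

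PHF6 was nearer to H3K27ac more often in members with the marks over 500 bp apart than in the others. At the 10 longest distances described below, PHF6 was nearer to H3K27ac in 5 members and nearer to H3K27me3 in 5. These 10 are too few to tell whether the share differs there, and they come from a narrower set of members given below. In the 457 members with H3K27me3 and H3K27ac summits over 500 bp apart, PHF6 was nearer to H3K27ac in 330 (72.2%, 67.9 to 76.3). In the other 470 members it was nearer to H3K27ac in 269 (57.2%, 52.6 to 61.8). The closer the marks lie, the more alike are their distances to PHF6, so the split may partly fix this difference. Along the line from the H3K27me3 to the H3K27ac summit, those 457 PHF6 summits fell before H3K27me3 in 64 cases (14.0%), between the marks on the H3K27me3 side of the midpoint in 63 (13.8%), between them on the H3K27ac side in 179 (39.2%) and beyond H3K27ac in 151 (33.0%).

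Acetylation at the members covered a wide range of heights. The H3K27ac summit paired with a member had a low height of 13 to 29 in 328 members (35.4%), an intermediate height of 30 to 149 in 364 (39.3%) and a high one of 150 to 400 in 235 (25.4%). Intermediate acetylation was more frequent here than at other PHF6 sites. Of the 930 H3K27ac peaks at members, 362 (38.9%, 35.8 to 42.1) had heights of 30 to 149, against 20.6% (20.04 to 21.1) of the 21912 H3K27ac peaks with PHF6 and no H3K27me3. Low heights made up 36.2% and 44.2%, and high ones 24.8% and 35.2%, of the same sets. The medians hide this, at 45 (quartiles 24 and 147) for members and 40 (20 and 251) for the others. Acetylated H3K27me3 peaks without PHF6 also had many intermediate heights, 110 of 232 (47.4%, 40.8 to 54.1).

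Read from the acetylation side, the share of PHF6-holding H3K27ac peaks with an H3K27me3 peak was 2.35% (1.96 to 2.79, n = 5402) at H3K27ac heights of 11 to 19. Any H3K27me3 peak that met the H3K27ac peak counted here, also one that met no PHF6 peak itself and so was no member. The share was 4.56% (3.98 to 5.20, n = 4629) at heights of 20 to 29. It was 7.92% (6.89 to 9.05, n = 2501) at heights of 30 to 59 and 7.20% (6.19 to 8.31, n = 2376) at 60 to 149. At 150 to 249 it was 3.20% (2.51 to 4.01, n = 2253), and at 250 to 400 it was 3.64% (3.17 to 4.16, n = 5739). From the lowest to the highest of these ranges, median H3K27ac widths were 916, 1071, 1453, 2022, 2067 and 2289 bp, wider in each taller range. Counted per Mb of H3K27ac peak, there were 23.8, 37.1, 45.9, 29.9, 12.2 and 13.5 peaks with H3K27me3. By this count heights of 20 to 29 stood above heights of 60 to 149.

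**Figure D2:**
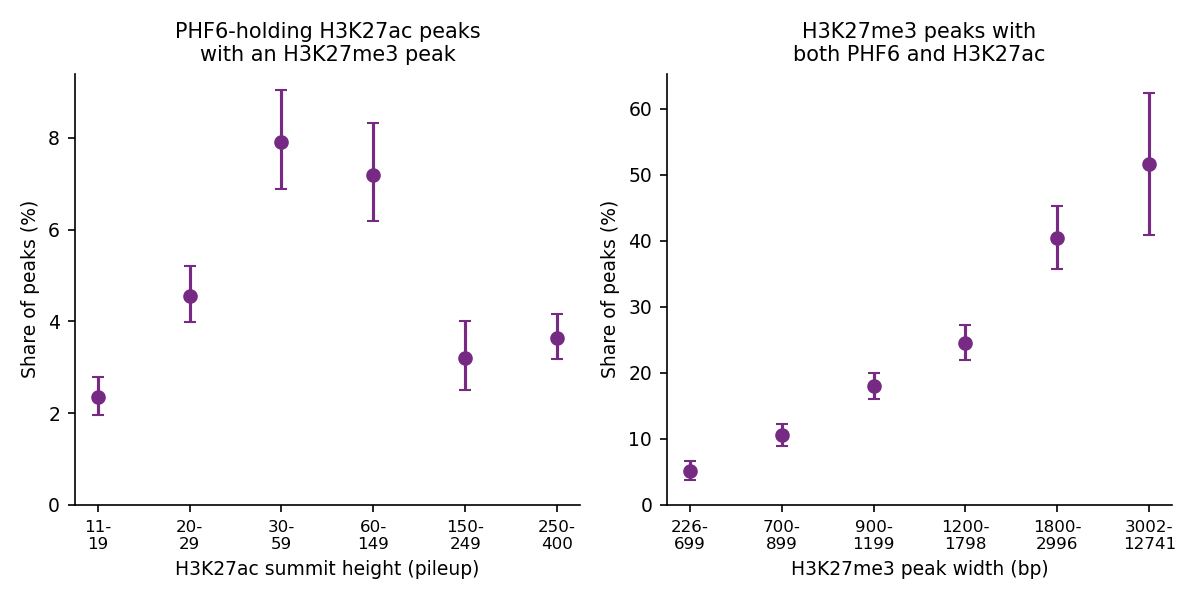
Left, share of PHF6-holding H3K27ac peaks with an H3K27me3 peak by H3K27ac summit height, and right, share of H3K27me3 peaks with both PHF6 and H3K27ac by H3K27me3 width in bp (points, shares in %, bars, 95% exact binomial intervals). The left shares are largest at heights of 30 to 149 (7.92% and 7.20%), and the right shares are higher in each wider range, 5.07% in the narrowest and 51.7% in the widest.

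Strong acetylation went with a longer distance between the marks and with PHF6 on the acetylated side. The H3K27me3 to H3K27ac distance had a median of 245 bp (quartiles 85 and 548) at low, 451 bp (148 and 915) at intermediate and 1289 bp (671 and 1942) at high H3K27ac heights. The PHF6 to H3K27ac distance did not lengthen in the same way, with medians of 166, 147 and 107 bp. PHF6 was nearer to H3K27ac in 58.5% (53.0 to 63.9), 63.5% (58.3 to 68.4) and 74.9% (68.8 to 80.3) of the 3 groups. The H3K27ac peaks themselves widened, with medians of 1173, 1639 and 2994 bp, while PHF6 widths stayed at 2078, 1927 and 2134 bp. Wider H3K27ac peaks allow longer distances, and their part in these values was not tested.

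The H3K27me3 summit lay inside the H3K27ac peak in 82.0%, 81.9% and 71.5% of these groups. Acetylated H3K27me3 peaks without PHF6 had distances of 258, 319 and 1466 bp (n = 51, 110 and 71). These were shorter than in members at intermediate height and longer at low and high height, and high heights made up 25.4% of members and 30.6% of that class. At high H3K27ac height the H3K27me3 summit was inside the H3K27ac peak in 71.5% (65.3 to 77.2) of the 235 members, against 43.7% (31.9 to 56.0) of the 71 peaks without PHF6. At intermediate height these shares were 81.9% (77.5 to 85.7) and 78.2% (69.3 to 85.5), and at low height 82.0% (77.4 to 86.0) and 66.7% (52.1 to 79.2). The intervals overlapped at low and intermediate height.

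**Figure D3:**
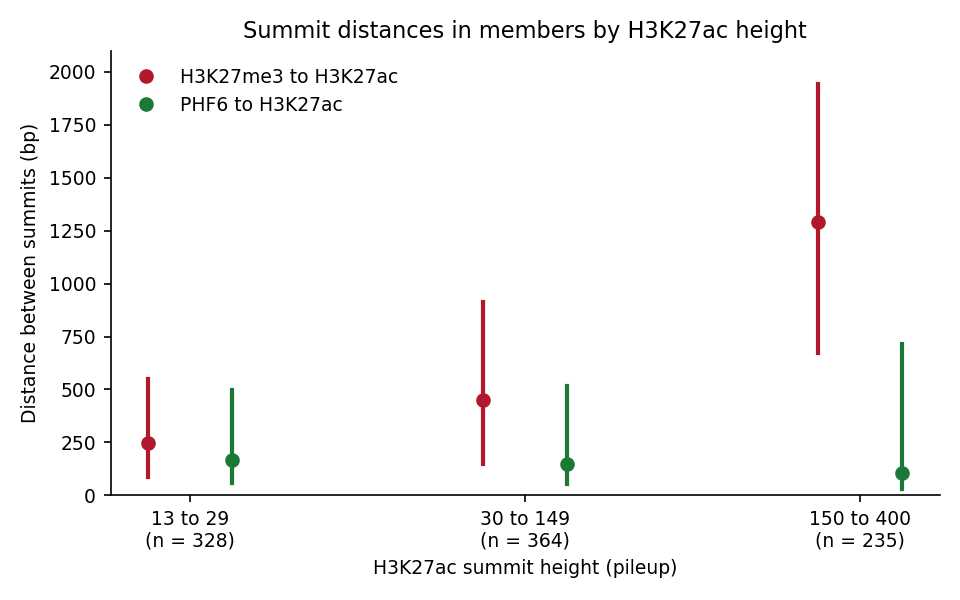
Distance in bp (y axis) from the H3K27me3 summit and from the PHF6 summit to the H3K27ac summit in members grouped by H3K27ac summit height (x axis), with points for medians and bars for quartiles. The H3K27me3 distance is 245, 451 and 1289 bp from low to high, and the PHF6 distance stays between 107 and 166 bp.

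The members with the longest distances had tall H3K27ac peaks. Among members with 1 PHF6 and 1 H3K27ac peak, the 10 longest H3K27me3 to H3K27ac distances were 4001 to 6427 bp, with H3K27ac heights of 191 to 358 and H3K27me3 heights of 13 to 41. The longest was at chr7:107647523-107648184 (qE3), where the H3K27me3 summit (height 23) was 6427 bp from the H3K27ac summit (308) and 1282 bp from PHF6 (30). At chr4:3857953-3864946 (qA1) an H3K27me3 peak of 6994 bp with height 23 reached the edge of an H3K27ac peak of height 276, and 99 bp separated the PHF6 summit (40) from the H3K27ac summit. A similar arrangement was found at chr7:133843287-133845924 (qF3), with PHF6 (47) 164 bp from H3K27ac (345) and 4242 bp from H3K27me3 (28). At chr8:73201164-73202922 (qB3.3) PHF6 (36) was instead 554 bp from H3K27me3 (29) and 4493 bp from H3K27ac (308). Of these 10 members, PHF6 was nearer to H3K27me3 in 5 and nearer to H3K27ac in 5.

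Turning to the trimethylation signal itself, members were wider than the rest of the H3K27me3 list, and taller only by a margin that did not hold under every setting. Their summit height had a median of 18 (quartiles 14 and 26), against 22.5 (16 and 33) at peaks with H3K27ac but no PHF6, 16 (14 and 22) at peaks with PHF6 but no H3K27ac and 15 (13 and 21) at peaks with neither. A member was taller than a non-member in 58.7% of pairs (56.7 to 60.7), with ties split evenly. With a score of at least 100 required in each list this was 50.3% (47.7 to 52.9), so no height difference was detectable there. Compared with acetylated peaks without PHF6, a member was taller in only 38.2% of pairs (34.2 to 42.1).

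Members differed from the rest more in width than in height. They had a median width of 1211 bp, against 1004, 996 and 876 bp in the other 3 classes, and were wider than a non-member in 70.5% of pairs (68.7 to 72.3). Wider peaks have more room to meet another peak, so this difference is partly fixed by the rule. Within ranges of similar width, a member was taller in 56.1% of pairs (51.7 to 60.6) under 900 bp. In the 3 wider ranges the intervals included 50%, at 48.8% (44.8 to 52.8) for 900 to 1199 bp, 46.7% (42.7 to 50.7) for 1200 to 1799 bp and 45.1% (40.0 to 50.1) for 1800 bp or more.

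**Figure D4:**
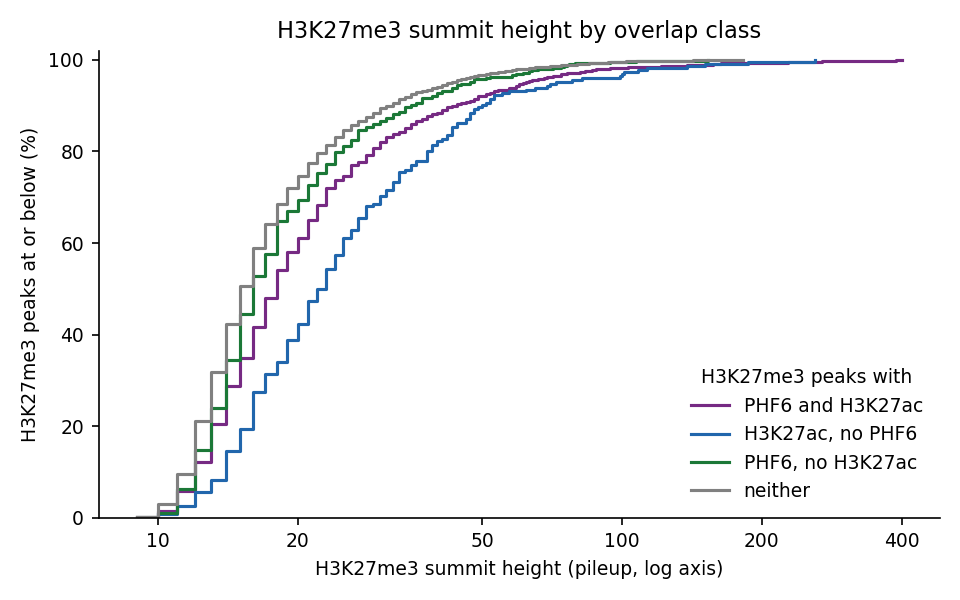
Cumulative share of H3K27me3 peaks (y axis, %) by H3K27me3 summit height (x axis, pileup, log axis) for the 927 members and the 3 other classes of H3K27me3 peaks. The members, with a median of 18, lie right of the peaks with PHF6 alone (16) or neither (15) and left of those with H3K27ac but no PHF6 (22.5).

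The share of H3K27me3 peaks that were members was 5.07% (3.80 to 6.62) below 700 bp and 51.7% (40.8 to 62.4) from 3002 bp upwards. Among acetylated H3K27me3 peaks the share with PHF6 was 61.4% (50.1 to 71.9, n = 83) and 86.8% (74.7 to 94.5, n = 53) at these ends. Over all widths, 927 of the 1159 acetylated H3K27me3 peaks had PHF6. PHF6 was common at H3K27ac peaks in general, as 21912 of the 31732 on these chromosomes held PHF6 without H3K27me3. This count leaves out the H3K27ac peaks that held both, so the full share with PHF6 is larger. By height, members made up 11.5% (9.55 to 13.6) of H3K27me3 peaks with heights of 9 to 12, and 24.4% (20.2 to 29.0) of those with heights of 40 to 99.

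PHF6 was also taller and wider at members than elsewhere on acetylated chromatin. The 941 PHF6 peaks at members had a median width of 2003 bp (quartiles 1393 and 2895), against 1507 bp (1147 and 2098) for the 22256 PHF6 peaks with H3K27ac and no H3K27me3. A member's PHF6 peak was the taller in 61.0% of pairs (59.3 to 62.8) and the wider in 63.7% (61.7 to 65.6). Wider PHF6 peaks meet H3K27me3 more readily, and PHF6 height went with PHF6 width among members (Spearman rho 0.42), so the rule partly fixes these differences. PHF6 peaks at H3K27me3 without H3K27ac had a median height of 22 (19 and 26, n = 541) and a median width of 1179 bp, against 33 (27 and 39) and 2003 bp at members. Across the 927 members PHF6 height followed H3K27ac height (Spearman rho 0.49) more closely than H3K27me3 height (rho 0.12), as a description over peaks of the same 3 libraries.

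The tallest members were of several kinds. An H3K27me3 height of 100 or more was found in 16 members (1.73%, 0.990 to 2.79), against 8 of 232 acetylated H3K27me3 peaks without PHF6 (3.45%, 1.50 to 6.68) and 0.797% of all H3K27me3 peaks. A site that is tall in all 3 lists meets the rule by that fact. Nearly equal heights in all 3 lists were found in 7 of these 16, so the rule may partly fix this share. At the first 3 of the 10 tallest, the heights in the 3 lists were nearly equal. The peak at chr2:98506034-98508021 (qE1) had heights of 400 for H3K27me3, 400 for H3K27ac and 400 for PHF6, with all summits inside 4 bp. At chr9:35112489-35113644 (qA4) the heights were 389, 385 and 387 in the same order of antibodies, inside 6 bp. At chr2:98502030-98505815 (qE1) they were 371, 371 and 372, with the summits spread over 295 bp. The same held for the tenth, at chr13:77577828-77578835 (qC1), with 157, 150 and 155 inside 1 bp, and, more loosely, for the fifth, at chr6:103598636-103599787 (qE1), with 243, 208 and 216 inside 135 bp.

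Other tall members differed between antibodies. The fourth, at chr7:20281289-20284623 (qA3), had an H3K27me3 height of 270 over an H3K27ac height of 24 and a PHF6 height of 35. At chr19:5800329-5802835 (qA) H3K27me3 stood at 205, H3K27ac at 351 and PHF6 at 41, and only 120 bp were common to all 3. At chr5:143664587-143667602 (qG2) the H3K27me3 summit (163) lay 3158 bp from the H3K27ac summit (374), and PHF6 (50) lay 13 bp from the H3K27ac summit. The sixth, at chr17:39979412-39986202 (qB1), had heights of 228, 391 and 399 with 6371 bp common to all 3, the longest such stretch. The ninth, at chr6:3150267-3152049 (qA1), had heights of 161, 198 and 276.

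Nearly equal heights were rare outside these sites. In 18 members (1.94%, 1.15 to 3.05) the largest of the 3 heights was at most 1.2 times the smallest, and 7 of the 16 members with H3K27me3 heights of 100 or more were among them. Signal common to the libraries was not tested at these sites, because the input was not analysed here. Sites where all 3 summits fell within 100 bp numbered 81 (8.74%, 7.0 to 10.7). These 81 had a median H3K27me3 height of 23 (quartiles 16 and 33), against 19 (15 and 28) in the 321 members whose summits spread over more than 1000 bp. Their median H3K27ac height was 33 (23 and 76), against 140 (37 and 313), and their median PHF6 height was 33 against 35. Median H3K27ac widths were 1207 and 2637 bp in these groups, and H3K27ac height went with H3K27ac width among members (Spearman rho 0.68). The part of width in these values was not tested.

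**Figure D5:**
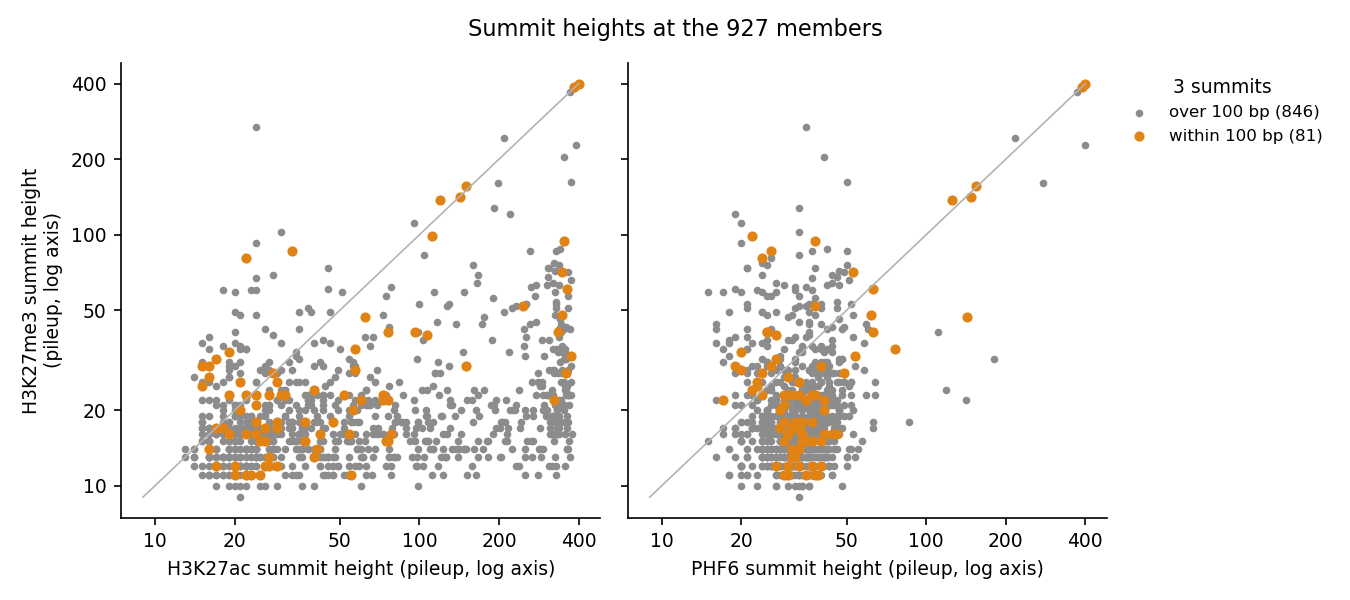
H3K27me3 summit height (y axis) against H3K27ac (left) and PHF6 (right) summit height in the 927 members, all in pileup units on log axes, with the diagonal marking equal heights. Of the 81 members with 3 summits within 100 bp (orange), a few lie on the diagonal in both panels, up to 400, and the rest mix with the 846 others (grey) at lower H3K27me3 heights, with quartiles of 16 and 33 over all 81.

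Long stretches of shared cover were not restricted to tall sites. After the chromosome 17 site, the members with most bases common to all 3 lists were chr11:120094555-120098885 (qE2), with 4158 bp, and chr10:80641307-80645326 (qC1), with 4020 bp. Their H3K27me3 heights were 21 and 41, their H3K27ac heights 133 and 342 and their PHF6 heights 32 and 111. At chr3:89122940-89127571 (qF1) 3814 bp were common to all 3 lists at heights of 31 for H3K27me3, 32 for H3K27ac and 38 for PHF6. At chr8:90483599-90486608 (qC3) the whole H3K27me3 peak of 3010 bp was covered by both other peaks, with heights of 26, 290 and 43. The other 5 of the first 10 shared 2809 to 3504 bp, among them the wider chromosome 2 site above with 3274 bp.

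Joined only with each other, members mostly stood alone. With members up to 5 kb apart put together, they formed 863 groups, of which 805 held 1 member, 52 held 2 and 6 held 3. Only members were joined here, 17.2% of the H3K27me3 peaks, and no other class was joined by itself. The count therefore does not set members apart. Another H3K27me3 peak of any class lay within 5 kb of 298 members (32.1%, 29.1 to 35.3), against 42.3% (38.0 to 46.6) of those with PHF6 but no H3K27ac, 24.1% (18.8 to 30.2) of acetylated ones without PHF6 and 30.2% of all H3K27me3 peaks. In groups of 3 or more H3K27me3 peaks joined at the same gap there were 121 members (13.1%, 10.95 to 15.4). Such groups held 14.2% (13.1 to 15.4) of the peaks with neither and 16.4% (11.9 to 21.8) of the acetylated ones without PHF6. Of all H3K27me3 peaks they held 14.96%. Only the peaks with PHF6 but no H3K27ac had an interval apart from that of members, at 23.1% (19.6 to 26.99).

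The 5 groups given here are those with most members, ties taken in genome order. The longest spanned 15.9 kb at chr15:102782546-102798440 (qF3). It held 3 members among 4 H3K27me3, 4 H3K27ac and 4 PHF6 peaks, with member heights of 17 to 35 for H3K27me3, 22 to 34 for H3K27ac and 18 to 38 for PHF6. The other 4 were shorter, at 4.92 to 6.94 kb. At chr8:123604389-123609323 (qE1) 3 H3K27me3 peaks with heights of 14 to 18 overlapped 1 H3K27ac peak of height 35. The groups at chr5:24104943-24111065 (qA3), chr13:40822868-40827786 (qA3.3) and chr17:15511411-15518345 (qA2) had H3K27me3 heights of 11 to 24 and H3K27ac heights of 16 to 110.

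Members had more further PHF6 peaks nearby than acetylated H3K27me3 peaks without PHF6, but fewer than peaks with PHF6 alone. Within 10 kb of the H3K27me3 summit there were on average 2.02 further PHF6 and 0.968 further H3K27ac summits beyond the overlapping ones. At acetylated H3K27me3 peaks without PHF6 these were 1.06 and 0.634, at peaks with PHF6 alone 2.58 and 1.16, and at peaks with neither 0.852 and 0.480. No further PHF6 summit was in this window in 26.9% (24.03 to 29.8) of members, against 43.5% (37.1 to 50.2) of acetylated H3K27me3 peaks without PHF6. At peaks with PHF6 alone this share was 17.6% (14.4 to 21.1), an interval below that of members. PHF6 peaks are denser in some parts of the genome, and the neighbours were not adjusted for this.

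Large acetylated regions held similar shares of H3K27ac peaks with and without H3K27me3. H3K27ac peaks no more than 12.5 kb apart were merged, and the 500 of 17052 regions that covered most bases contained 189 of the 930 H3K27ac peaks at members (20.3%, 17.8 to 23.1). They contained 20.8% (20.2 to 21.3) of the H3K27ac peaks with PHF6 and no H3K27me3. Conversely, 342 members (36.9%, 33.8 to 40.1) lay on an H3K27ac peak with no other within the joining gap, against 44.0% (37.5 to 50.6) of acetylated H3K27me3 peaks without PHF6. These intervals overlap.

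Along the genome, members and the other H3K27me3 peaks with PHF6 had similar shares in light cytogenetic bands, which are gene-rich. Of the members, 50.9% (47.6 to 54.2) had their summit in a light band, against 53.9% (49.5 to 58.3) of those with PHF6 but no H3K27ac, 37.5% (31.3 to 44.1) of acetylated ones without PHF6 and 46.8% of all H3K27me3 peaks. Light bands make up 41.2% of these chromosomes. The darkest bands, 31.2% of these chromosomes, held 15.4% (13.2 to 17.9) of members, against 13.6% (10.8 to 16.8) of the peaks with PHF6 but no H3K27ac, 25.9% (20.4 to 32.0) of the acetylated peaks without PHF6 and 24.3% (22.9 to 25.7) of the peaks with neither.

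The share of H3K27me3 peaks that were members ranged over the chromosomes. It was largest on chromosome 17, at 78 of 273 peaks (28.6%, 23.3 to 34.3), followed by chromosome 7 at 84 of 342 (24.6%, 20.1 to 29.5) and chromosome 10 at 51 of 220 (23.2%, 17.8 to 29.3). It was smallest on chromosome 16, at 19 of 214 (8.88%, 5.43 to 13.5), followed by chromosomes 6 (10.98%) and 3 (10.99%). Members per Mb ran from 0.184 on chromosome 14 to 0.819 on chromosome 17.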

How the data were processed

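ChIP-seq peak and summit lists for PHF6, H3K27ac and H3K27me3 were used, 1 library each. The submitters' processing notes name Bowtie2, SAMtools, MACS 1.4.0 and build mm9 but neither their order nor options. The deposited score per peak has a smallest value near 60, which matches 10 times the negative log10 of the 1e-6 threshold that the lists' names carry. By those names, local lambda was switched off for PHF6 and H3K27ac and not for H3K27me3. The deposited signal at each summit is a whole-number height, not normalized as far as the sources used here tell. The sources used here do not say whether the input entered peak calling. Depth is unknown.

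Overlap meant at least 1 shared bp. A member's partner was the overlapping peak with the summit nearest the H3K27me3 summit. Shares carry 95% exact (Clopper-Pearson) intervals, and shares of pairs carry DeLong intervals. Both cover counting error only, and neighbouring peaks are not independent. Bands came from circlize 0.4.16 (R 4.3.3), and other steps used Python 3.11.15, scipy 1.17.1, numpy 2.4.6, matplotlib 3.10.9 and pandas 2.3.3. All peaks ended within the mm9 chromosome lengths. The routines were tested on simulated lists and returned the planted overlaps. Members, ranges of height and width, and comparisons were chosen with earlier results of these data known. Named regions are the 10 tallest by H3K27me3 height, the 10 with most bases in all 3 lists, the 5 groups with most members and, among members with 1 PHF6 and 1 H3K27ac peak, the 10 with the longest H3K27me3 to H3K27ac distance. Comparisons with start sites and gene lists, which need mm9 gene positions, were not made.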

Additional observations from a re-analysis of the deposited data

Results flagged for a closer look

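The rule used chromosomes 1 to 19. Outside them, 4 of 221 H3K27me3 peaks on chromosomes X and Y overlapped both PHF6 and H3K27ac (1.81%, 95% exact interval 0.495 to 4.57), and they are given here because no comparison above used them. All 4 were on chromosome X. At chrX:139917177-139918013 the heights were 116 for H3K27me3, 103 for H3K27ac and 105 for PHF6, with the 3 summits within 11 bp. The other 3 had H3K27me3 heights of 12 to 13, H3K27ac heights of 15 to 130 and PHF6 heights of 21 to 22, and their summits spread over 339 to 546 bp. The labels do not give the sex of the cells.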

How the results depend on the processing

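Of 33 alternatives over 6 results, 17 stayed within the counting interval. The share of H3K27me3 peaks that were members (17.2%) was 19.7% at a score of at least 100, 14.3% when 50% of the shorter peak had to be shared, 13.1% with the H3K27me3 summit inside both other peaks and 8.66% with the top decile by height left out of all lists, which removes the tallest PHF6 and H3K27ac peaks. PHF6 nearer to H3K27ac (64.6%) became 57.8% with that decile left out. Summits within 100 bp (8.74%) became 3.13% at 50 bp and 18.8% at 200 bp. Another H3K27me3 peak near a member (32.1%) became 18.7% at 1 kb, 36.7% at 10 kb and 21.9% at a score of at least 100. Members taller than non-members (58.7% of pairs) became 64.0% when ranked by score and 50.3% (47.7 to 52.9) at a score of at least 100. Within widths, compared after seeing the data, this was 56.1% under 900 bp and 48.8%, 46.7% and 45.1% in the 3 wider ranges, whose intervals include 50%. The cause of these shifts was not tested. No paired analysis was possible because there was 1 library per antibody. Alternatives that need start sites were left out. Unknown depth limits every list, and weak peaks of any antibody may have been missed.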
